A study of Mus musculus with 6 samples.

Results

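The genes described here encode the enzymes of fatty acid oxidation, from the activation and carnitine transport of acyl groups through mitochondrial and peroxisomal β-oxidation to the transfer of electrons to the respiratory chain. The rule that lists them goes by gene function, and the list was drawn up with earlier results of these data known. The list names 35 genes, of which 33 were analysed among 22180 genes tested. Acsl1 and Cpt1b were not analysed here, Cpt1b because its probe set also carries the symbols of other genes. RNA came from the stromal vascular fraction (SVF) of gonadal white adipose tissue (gWAT), the cells that pellet after collagenase digestion while mature adipocytes float, in wt C57Bl/6 mice labelled as 8 weeks old. Of these mice, 3 received CL316243 (CL), an agonist of the β3-adrenergic receptor, by intraperitoneal injection at 1 mg per kg in 0.1 ml, on 3 days by the labels, and 3 received vehicle. The methods of the study give a longer course of CL in general and younger, female mice for the fractionation, so the sources do not settle the days, age and sex for these arrays. The labels name no sort of the SVF, so each array holds the RNA of many cell types. Fewer cells of a type and less RNA per cell cannot be told apart in such samples.

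Fatty acids enter oxidation as acyl-CoA, made by acyl-CoA synthetases. Long-chain acyl groups cross into mitochondria as carnitine esters, through carnitine palmitoyltransferases on the outer and the inner membrane and a translocase between them. Each turn of β-oxidation then takes a dehydrogenation, a hydration, another dehydrogenation and a thiolytic cleavage, and it releases acetyl-CoA for the citric acid cycle. Electrons from the first step reach ubiquinone through the electron transfer flavoprotein and its oxidoreductase. Peroxisomes shorten very long and branched chains with a separate set of enzymes. In brown and beige fat this pathway is a main fuel route for thermogenesis, and many of its genes are known targets of the PPAR and ERR nuclear receptors.

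All values are log2 levels from Affymetrix Mouse Gene 2.0 ST arrays. A difference is the mean with CL minus the mean with vehicle on the log2 scale, given ± its standard error from limma, and adjusted p-values are corrected over all genes tested. Over all probe sets, Pearson's r between pairs of arrays was 0.951 to 0.976, across features that are not independent replicates. A level of 3.59 was taken as background, the 95th percentile of the mean levels of 1394 olfactory and vomeronasal receptor genes. Markers of SVF cells lay well above it, among them Pecam1 of endothelial cells (9.61, 8.37 and 9.08 with CL, against 9.60, 10.07 and 9.64 with vehicle) and Pdgfra of adipocyte progenitors (9.25, 9.63 and 9.63 with CL, against 8.88, 8.96 and 8.47 with vehicle). Pdgfra had the largest difference of the 11 progenitor markers analysed, of 12 listed, whose median difference was 0.02, with the mean of 6 higher with CL and that of 5 lower. The adipocyte markers Adipoq and Plin1 were also above background on every array.

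With CL, transcript levels of the fatty acid oxidation genes lay higher at most steps of the pathway. The mean was higher with CL for 29 of the 33 genes and lower for 4, and their median difference was 0.30, against 0.00 for all genes tested. At an unadjusted p under 0.05 in limma, 14 of the 33 (42.4%) were higher and 0 were lower, where 9.4% of all genes tested were higher and 5.38% were lower. The levels of 17 genes did not overlap between the groups with CL above vehicle, and those of 1 did not overlap with CL below, against 11.2% and 8.72% of all genes tested. At an adjusted p under 0.05, 1 of the 33 rose, Echs1, and 0 fell, where 0.198% of all genes tested rose and 0.126% fell. The two-sided test that the methods of the study name, without moderation of the variance, gave 14 higher and 1 lower before adjustment and 0 after it. These were not the same 14 genes, since 11 of those higher in limma were among them and Cpt1c, Acadsb and Etfa were not.

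**Figure D1:**
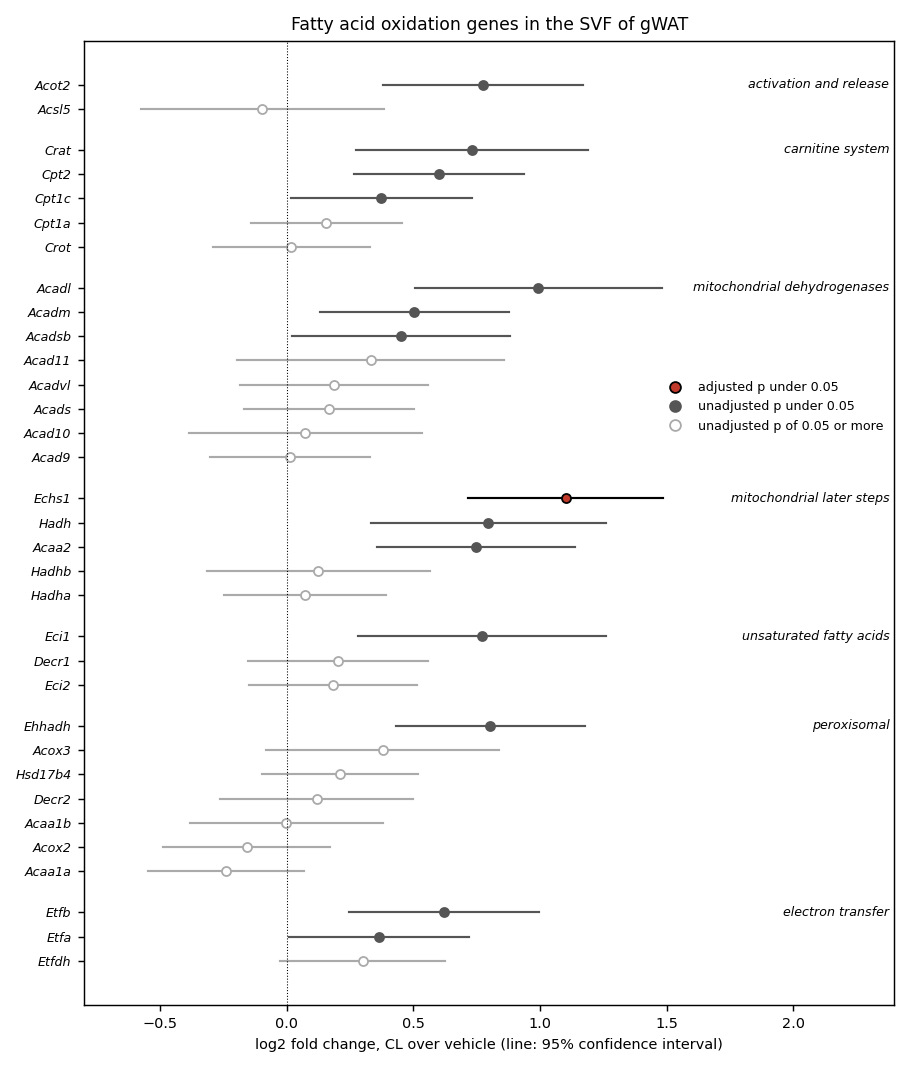
Log2 fold change (CL over vehicle) of the 33 genes by step of the pathway, with 95% confidence intervals from limma. Echs1, at 1.10, is the gene with an adjusted p under 0.05, and the intervals of 14 genes lie above 0.

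Highly expressed genes as a whole lay somewhat higher with CL. Genes above the median level had a median difference of 0.09, and 16.5% of them were higher at an unadjusted p under 0.05, whereas the 29 fatty acid oxidation genes above that level had a median of 0.36 and 48.3% were higher. Quantile normalization of the genes tested left 11 of the 33 (33.3%) higher, against 7.15% of all genes, with a median of 0.20. Cyclic loess left 10 (30.3%), against 7.17%, with a median of 0.18. Under both, 1 of the 33 was lower.

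The shift was present on each CL array. Per array, the median deviation of the 33 genes from their own means was 0.23, 0.17 and 0.11 with CL, against -0.10, -0.17 and -0.22 with vehicle. On the CL arrays 28, 25 and 25 of the 33 genes were above their own mean, and on the vehicle arrays 8, 11 and 6 were. Leaving out any 1 array, 10 to 13 of the 33 were higher at an unadjusted p under 0.05 and 0 were lower. Of the 14 genes higher in the main comparison, 9 were so under all 19 alternative settings. These were Acot2, Cpt2, Crat, Acadl, Echs1, Hadh, Acaa2, Eci1 and Ehhadh. The others, Cpt1c, Acadm, Acadsb, Etfa and Etfb, missed it under at least 1 setting.

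**Figure D2:**
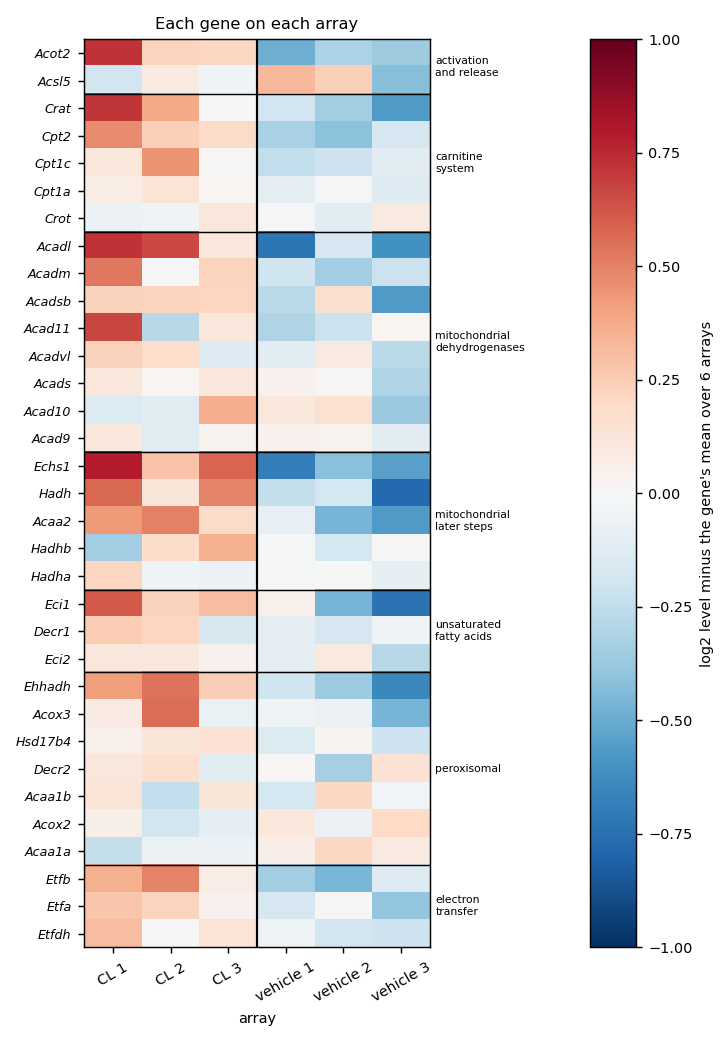
Log2 level of each gene on each array minus the mean of that gene over the 6 arrays, in rows by step of the pathway, with the 3 CL arrays left of the 3 vehicle arrays. The median of a column is 0.11 to 0.23 for the CL arrays and -0.22 to -0.10 for the vehicle arrays.

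Promoters are shown for the 4 genes of the list with the smallest p, since these genes lay higher together. Each window starts 250 bases before the start of the gene and is 300 bases long (RefSeq, GRCm38.p6), 5′ to 3′ on the strand of the gene. Capitals mark AGGTCA, the core element that nuclear receptors such as PPAR bind, or TGACG, the core of the cAMP response element, on either strand.
Echs1, chr7:140116372-140116671, minus strand: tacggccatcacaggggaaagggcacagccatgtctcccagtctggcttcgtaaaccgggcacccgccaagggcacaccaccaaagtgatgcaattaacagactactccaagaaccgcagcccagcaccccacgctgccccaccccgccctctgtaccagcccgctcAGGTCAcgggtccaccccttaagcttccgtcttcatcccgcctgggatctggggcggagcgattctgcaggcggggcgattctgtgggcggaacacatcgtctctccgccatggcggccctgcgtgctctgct
Acadl, chr1:66863260-66863559, minus strand: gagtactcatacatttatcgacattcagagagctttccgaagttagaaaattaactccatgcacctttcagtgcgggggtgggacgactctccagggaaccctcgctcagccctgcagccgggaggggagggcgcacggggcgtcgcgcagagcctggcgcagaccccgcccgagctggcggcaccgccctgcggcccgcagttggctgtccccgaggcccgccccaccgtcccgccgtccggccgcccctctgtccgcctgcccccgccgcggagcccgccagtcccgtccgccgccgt
Ehhadh, chr16:21787785-21788084, minus strand: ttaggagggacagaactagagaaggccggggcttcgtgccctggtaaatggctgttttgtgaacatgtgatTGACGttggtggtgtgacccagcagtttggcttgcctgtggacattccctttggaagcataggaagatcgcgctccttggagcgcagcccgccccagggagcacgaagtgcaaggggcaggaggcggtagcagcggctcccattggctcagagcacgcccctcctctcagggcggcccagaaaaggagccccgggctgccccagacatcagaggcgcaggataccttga
Acot2, chr12:83987611-83987910, plus strand: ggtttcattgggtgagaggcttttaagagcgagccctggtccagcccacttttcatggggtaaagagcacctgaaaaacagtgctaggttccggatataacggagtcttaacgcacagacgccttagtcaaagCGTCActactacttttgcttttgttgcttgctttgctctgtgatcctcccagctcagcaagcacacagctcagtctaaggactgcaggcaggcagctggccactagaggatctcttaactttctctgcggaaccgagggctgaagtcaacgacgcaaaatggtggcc

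In the window of Echs1, AGGTCA began 83 bases before the start. TGACG stood on the strand of the gene in Ehhadh, 179 bases before the start, and on the other strand in Acot2, 117 bases before it, while the window of Acadl held neither. Of the 33 genes, 28 matched a promoter in the reference table, with 29 windows in all. AGGTCA, searched on both strands, was in 5 of these windows (17.2%), against 16.3% of 32851 windows in all. TGACG was in 10 (34.5%), against 20.8%. Of the 28 matched genes, 12 were higher at an unadjusted p under 0.05. These 12 held 5 of the 10 genes with TGACG and 3 of the 5 genes with AGGTCA. The windows were not matched for base composition, so the shares are not compared further. The full cAMP element TGACGTCA, which contains TGACG, was in 0 member windows and 1.79% of all. The ERR element TCAAGGTCA, which contains AGGTCA, was in 0 and 0.423%, and the direct repeat AGGTCANAGGTCA in 0 and 0.0396%. A match is a description of letters in these windows and not a site of binding.

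Among the mitochondrial enzymes after the first dehydrogenation, Echs1 encodes the short-chain enoyl-CoA hydratase, which adds water to the double bond of the acyl chain. Its level was 7.35, 6.84 and 7.14 with CL, against 5.87, 6.14 and 6.02 with vehicle. The lowest CL array lay 0.70 above the highest vehicle array. The mean was 7.11 ± 0.25 with CL and 6.01 ± 0.14 with vehicle (SD, n = 3 each), a difference of 1.10 ± 0.17 (adjusted p = 0.0410), or 2.15-fold. With any 1 array left out, the adjusted p of Echs1 was 0.0836 to 0.173, and under quantile normalization and cyclic loess it was 0.0738 and 0.0757, so none of these kept the call.

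Hadh, the hydroxyacyl-CoA dehydrogenase for medium and short chains, had levels of 9.084, 8.625 and 9.004 with CL, against 8.270, 8.332 and 7.727 with vehicle. The groups did not overlap, and vehicle replicate 3 was the lowest. The difference was 0.80 ± 0.20 (adjusted p = 0.137). Acaa2, the mitochondrial thiolase that cleaves off acetyl-CoA, had levels of 9.13, 9.20 and 8.89 with CL, against 8.62, 8.24 and 8.13 with vehicle, again without overlap. Its difference was 0.75 ± 0.17 (adjusted p = 0.106).

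For the trifunctional protein, which carries the hydratase, dehydrogenase and thiolase activities for long chains, the groups overlapped. Hadha, its alpha subunit, had levels of 9.31, 9.06 and 9.05 with CL, against 9.09, 9.10 and 9.01 with vehicle. Its difference of 0.07 had a 95% confidence interval of -0.25 to 0.39, whose upper end is a 1.31-fold higher level, and it was -0.03 under cyclic loess. Hadhb, the beta subunit, lay near background at 3.79 ± 0.37 with CL and 3.67 ± 0.10 with vehicle (SD, n = 3 each), so that a difference in it would be poorly measured. Of these 5 later enzymes, 3 (60%) were higher at an unadjusted p under 0.05, against 9.4% of all genes tested. The share was 16.5% among genes above the median level. The median difference of the 5 was 0.75.

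**Figure D3:**
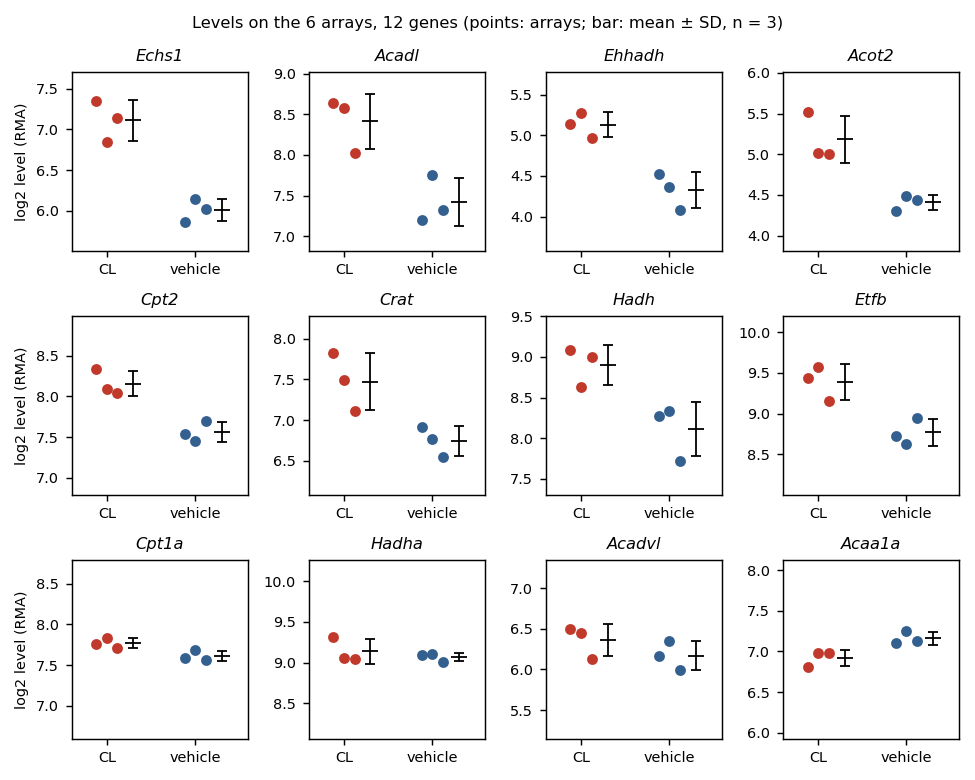
Log2 levels of 12 genes on the 3 CL arrays (left) and the 3 vehicle arrays (right), with mean ± SD (n = 3) beside the points, each panel spanning 2.2 log2 units. The CL points of Echs1, Acadl and Ehhadh lie above the vehicle points, and Echs1 averages 7.11 ± 0.25 with CL and 6.01 ± 0.14 with vehicle (SD, n = 3 each).

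The acyl-CoA dehydrogenases catalyse the first step, each for a range of chain lengths. The mean of all 8 genes of this family was higher with CL, by a median of 0.26. At an unadjusted p under 0.05, 3 (37.5%) were higher, against 9.4% of all genes tested and 16.5% of those above the median level. Acadl, the long-chain enzyme, had levels of 8.64, 8.58 and 8.03 with CL, against 7.20, 7.75 and 7.32 with vehicle. The lowest CL array, replicate 3, was 0.28 above the highest vehicle array, and the difference was 0.99 ± 0.21 (adjusted p = 0.0909), or 1.99-fold. Acadm, the medium-chain enzyme, had levels of 8.89, 8.37 and 8.59 with CL, against 8.17, 8.03 and 8.15 with vehicle, a difference of 0.50 ± 0.16 (adjusted p = 0.208). Acadsb, which oxidises the short branched chain from isoleucine, had levels of 7.04, 7.04 and 7.03 with CL, against 6.54, 6.97 and 6.24 with vehicle. Its CL arrays lay within 0.02 of each other while the vehicle arrays were spread, and the difference was 0.45 ± 0.19 (adjusted p = 0.315).

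For the enzymes at the ends of the chain-length range the groups overlapped. Acadvl, the very long-chain dehydrogenase of the inner membrane, had levels of 6.50, 6.44 and 6.13 with CL, against 6.16, 6.35 and 6.00 with vehicle, a difference of 0.19 with a 95% confidence interval of -0.18 to 0.56. Acads, the short-chain enzyme, had 6.44, 6.34 and 6.44 with CL, against 6.37, 6.34 and 6.02 with vehicle, a difference of 0.17 with an interval of -0.17 to 0.50. The other family members were Acad9, known also as an assembly factor of respiratory complex I, Acad10 and Acad11. They differed by 0.01, 0.07 and 0.33, and the groups overlapped for each.

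In the carnitine system the mean of all 5 genes was higher with CL, by a median of 0.37. Of these, 4 were higher without overlap, against 11.2% of all genes tested and 18.5% of those above the median level. Cpt2, which turns acylcarnitine back into acyl-CoA inside the mitochondrion, had levels of 8.33, 8.09 and 8.05 with CL, against 7.53, 7.45 and 7.69 with vehicle. Its difference was 0.60 ± 0.15 (adjusted p = 0.128), or 1.52-fold. Cpt1a, the malonyl-CoA-sensitive outer-membrane enzyme of liver and many other tissues, had 7.76, 7.83 and 7.71 with CL, against 7.59, 7.68 and 7.56 with vehicle. The groups were only 0.03 apart, and the difference of 0.16 had a 95% confidence interval of -0.14 to 0.45. Cpt1c, a homologue known mainly from neurons and the endoplasmic reticulum, had levels of 5.90, 6.23 and 5.80 with CL, against 5.55, 5.58 and 5.68 with vehicle, a difference of 0.37 ± 0.16 (adjusted p = 0.315).

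Crat, the carnitine acetyltransferase that buffers acetyl-CoA, had levels of 7.82, 7.49 and 7.11 with CL, against 6.92, 6.77 and 6.54 with vehicle. Every CL array was above every vehicle array, and the difference was 0.73 ± 0.20 (adjusted p = 0.153). The second probe set of Crat, of lower level, had means of 5.97 with CL and 4.71 with vehicle, a difference of 1.27, and with the mean of both probe sets Crat had an adjusted p of 0.0461. Crot, the octanoyltransferase that exports shortened chains from peroxisomes, had levels of 7.44, 7.46 and 7.61 with CL, against 7.48, 7.39 and 7.59 with vehicle. Its difference was 0.02 with a 95% confidence interval of -0.29 to 0.33, and its sign turned under quantile normalization and cyclic loess.

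At the entry of the pathway Acsl5 and Acot2 were analysed. Acsl5, an acyl-CoA synthetase, had levels of 7.16, 7.45 and 7.32 with CL, against 7.68, 7.60 and 6.93 with vehicle. Vehicle replicate 3 was below all CL arrays, and the difference of -0.10 ± 0.21 was within the spread. Acot2, the mitochondrial thioesterase that frees fatty acid from acyl-CoA, had levels of 5.521, 5.021 and 5.004 with CL, against 4.304, 4.482 and 4.438 with vehicle. All CL arrays were above the vehicle arrays, by a difference of 0.77 ± 0.17 (adjusted p = 0.102). Acot2 lies in a cluster of near-identical thioesterase genes whose probes may cross-hybridise, so its value is uncertain. The close paralog Acot1 had 4.79, 6.16 and 5.12 with CL, against 3.75, 5.76 and 4.72 with vehicle, where the groups overlapped. Acot6, another thioesterase gene, had 4.53, 4.55 and 4.71 with CL, against 4.14, 3.76 and 4.04 with vehicle, without overlap. Its difference was 0.62 ± 0.15 (adjusted p = 0.128).

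Unsaturated fatty acids need auxiliary enzymes that move or reduce their double bonds. Eci1, a mitochondrial enoyl-CoA isomerase, had levels of 7.53, 7.15 and 7.22 with CL, against 6.96, 6.45 and 6.17 with vehicle, without overlap and with a difference of 0.77 ± 0.22 (adjusted p = 0.158). Eci2, an isomerase found in peroxisomes as well, differed by 0.18 (95% confidence interval -0.15 to 0.52). Decr1, the mitochondrial dienoyl-CoA reductase, differed by 0.20 (interval -0.15 to 0.56). The groups overlapped for Eci2 and Decr1.

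The 3 genes of electron transfer each had every CL array above every vehicle array, as did 11.2% of all genes tested. The same held for 18.5% of genes above the median level. Etfb, the beta subunit of the electron transfer flavoprotein, had levels of 9.44, 9.58 and 9.15 with CL, against 8.73, 8.62 and 8.95 with vehicle, a difference of 0.62 ± 0.17 (adjusted p = 0.143), or 1.54-fold. Etfa, the alpha subunit, had 9.04, 8.99 and 8.81 with CL, against 8.60, 8.78 and 8.37 with vehicle, a difference of 0.36 ± 0.16 (adjusted p = 0.325). CL replicate 3 and vehicle replicate 2 came within 0.03 of each other for Etfa. Etfdh, which passes the electrons on to ubiquinone, had 7.97, 7.66 and 7.79 with CL, against 7.60, 7.47 and 7.45 with vehicle, a difference of 0.30 with a 95% confidence interval of -0.02 to 0.63.

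The peroxisomal enzymes lay closer to 0 as a group. Of 7 genes, the mean of 4 was higher with CL and that of 3 was lower, and the median difference was 0.12. At an unadjusted p under 0.05, 1 of them (14.3%) was higher, where 9.4% of all genes tested were. The share was 16.5% among genes above the median level. Of the 19 genes grouped as mitochondrial β-oxidation and electron transfer, 9 (47.4%) were higher, and the median of the 19 was 0.33. That grouping holds Eci2, whose product is found in peroxisomes as well. A separate list of 18 other peroxisomal lipid enzymes and transporters had a median difference of 0.30, with 6 (33.3%) higher at that threshold. Whether the compartments differ was not tested. Ehhadh, the L-type bifunctional enzyme and a classical PPARα target in mouse liver, had levels of 5.14, 5.27 and 4.97 with CL, against 4.53, 4.36 and 4.09 with vehicle. These did not overlap, and the difference was 0.80 ± 0.16 (adjusted p = 0.0839), or 1.75-fold. Hsd17b4, the D-type bifunctional enzyme, had 8.03, 8.10 and 8.12 with CL, against 7.84, 8.01 and 7.77 with vehicle, a difference of 0.21 with a 95% confidence interval of -0.10 to 0.52.

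Acaa1a, a peroxisomal thiolase, was the 1 gene whose levels were lower without overlap, at 6.81, 6.98 and 6.98 with CL, against 7.10, 7.25 and 7.13 with vehicle. Its difference was -0.24 (95% confidence interval -0.55 to 0.07, adjusted p = 0.474). Its close paralog Acaa1b, whose probes may share targets with it, differed by 0.00 (interval -0.38 to 0.38). Acox3, a peroxisomal acyl-CoA oxidase, differed by 0.38 (interval -0.08 to 0.84), and Decr2, the peroxisomal dienoyl-CoA reductase, by 0.12 (interval -0.26 to 0.50). Acox2, the branched-chain oxidase known from bile acid synthesis, averaged 2.90 ± 0.12 with CL and 3.06 ± 0.13 with vehicle (SD, n = 3 each), below background in both groups.

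Neighbouring pathways were read from lists drawn up by function. The citric acid cycle oxidises the acetyl-CoA that β-oxidation releases, and the means of all 15 of its genes analysed were higher with CL, by a median of 0.45. In limma 0 of them passed after adjustment. Before it, 7 (46.7%) were higher and 0 were lower, against 9.4% and 5.38% of all genes tested. Among genes above the median level 16.5% were higher and 6.06% were lower. Cs, the citrate synthase of its first step, had levels of 8.63, 8.57 and 8.70 with CL, against 8.02, 7.94 and 7.71 with vehicle, a difference of 0.74 ± 0.14 (adjusted p = 0.0753). Branched-chain amino acid and propionyl-CoA breakdown had 18 genes, with a median of 0.41. Before adjustment 9 (50%) were higher and 0 were lower, against the same shares of all genes and of those above the median level. After adjustment 0 passed. Oxct1 and Acat1, enzymes of ketone body use, differed by 0.53 and 0.50 (adjusted p = 0.190 and 0.188), both without overlap.

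**Figure D4:**
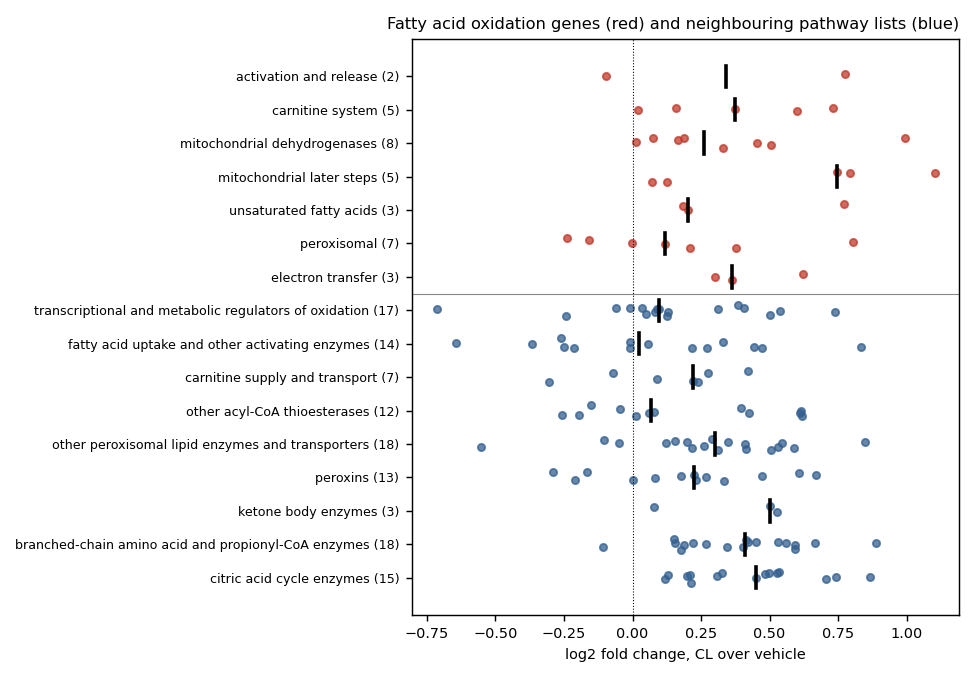
Log2 fold change (CL over vehicle) of each gene (points) and the median (black bars) for the steps of fatty acid oxidation (red) and the neighbouring pathway lists (blue). Medians run from 0.12 to 0.75 in the red rows and from 0.02 to 0.50 in the blue rows.

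As a list, genes that bring fatty acids to the pathway shared no direction. Of 14 genes of uptake and activation, 1 rose after adjustment and 0 fell, against 0.198% and 0.126% of all genes tested. Before adjustment 2 (14.3%) were higher and 1 (7.14%) was lower, against 9.4% and 5.38% of all genes tested. The mean of 7 was higher with CL and that of 7 was lower, and the median difference of the 14 was 0.02. Lpl, the lipoprotein lipase that frees fatty acids from circulating triglyceride, rose, with levels of 10.96, 11.01 and 11.03 with CL, against 10.12, 10.23 and 10.16 with vehicle and a difference of 0.84 ± 0.13 (adjusted p = 0.0415). The call of Lpl was lost under 12 of 19 alternative settings, among them quantile normalization, cyclic loess, the methods' test and the omission of any 1 array (adjusted p = 0.0891 to 0.167). Cd36, a fatty acid translocase, lay lower without overlap at 11.32, 10.83 and 11.20 with CL, against 11.64, 11.89 and 11.75 with vehicle, a difference of -0.65 ± 0.17 (adjusted p = 0.141). The fatty acid-binding protein genes Fabp3, Fabp4 and Fabp5 differed by -0.37, -0.26 and -0.21 (adjusted p = 0.490, 0.478 and 0.630). Of these, Fabp4 lay lower without overlap, and the groups overlapped for Fabp3 and Fabp5. Slc25a20, the carnitine-acylcarnitine translocase, differed by 0.27 ± 0.17 (adjusted p = 0.516), with overlap.

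Of 17 transcriptional and metabolic regulators of oxidation, the mean of 13 was higher with CL and that of 4 was lower, and the median difference was 0.10. In limma 0 passed after adjustment. Before it, 4 (23.5%) were higher and 1 (5.88%) was lower, against 9.4% and 5.38% of all genes tested. Of genes above the median level, 16.5% were higher. Ppara and Ppargc1a, which encode PPARα and its coactivator PGC-1α, lay below background on average. Pparg, the adipogenic PPAR, had levels of 9.23, 8.17 and 8.72 with CL, against 9.17, 9.70 and 9.39 with vehicle, a difference of -0.71 ± 0.26 (adjusted p = 0.258) with overlap. Rxra, the gene of the PPAR partner RXRα, differed by 0.31 ± 0.14 (adjusted p = 0.365) and Ppargc1b, which encodes the coactivator PGC-1β, by 0.39 ± 0.16 (adjusted p = 0.308), both without overlap. Esrra, the gene of ERRα, differed by 0.03 ± 0.13 (adjusted p = 0.935), with overlap. Pdk4, a kinase that restrains pyruvate oxidation, had 7.93, 7.35 and 7.57 with CL, against 6.81, 7.16 and 6.67 with vehicle, a difference of 0.74 ± 0.20 (adjusted p = 0.142) without overlap.

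Markers of cell types that use this pathway differed between arrays. The 11 adipocyte markers analysed, of 13 listed, had a mean level of 6.42 to 7.56 with CL, against 6.78 to 7.03 with vehicle, and a median difference of -0.03. Among the CL arrays replicate 1 was highest and replicate 2 lowest. Adipoq had 8.55, 7.72 and 8.36 with CL, against 6.65, 7.09 and 7.16 with vehicle (difference 1.24, adjusted p = 0.0730), and Plin1, the perilipin of lipid droplets, had 7.90, 6.67 and 7.28 with CL, against 5.85, 6.10 and 5.57 with vehicle (difference 1.44, adjusted p = 0.0816). Both lay higher on every CL array. Cidec, another lipid droplet protein, had 8.55, 6.41 and 7.69 with CL, against 7.86, 8.53 and 7.79 with vehicle, with overlap, and Lep, the leptin gene, lay below background on average.

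The 9 brown and beige adipocyte markers analysed, of 10 listed, had a mean level of 4.21 to 5.24 with CL, against 3.80 to 3.99 with vehicle, and 4 of them lay below background on average. Ucp1, the uncoupling protein of brown and beige fat, had 6.54, 4.12 and 3.99 with CL, against 3.50, 3.51 and 3.35 with vehicle, so that CL replicate 1 stood far above the others. Cidea had 5.79, 4.63 and 3.11 with CL, against 3.44, 4.18 and 3.76 with vehicle, with overlap. Cox8b, a cytochrome c oxidase subunit of brown fat and muscle, had 9.78, 7.83 and 8.07 with CL, against 6.66, 6.37 and 5.55 with vehicle (difference 2.36, adjusted p = 0.0844). Cox7a1 had 7.37, 6.55 and 6.14 with CL, against 6.45, 6.07 and 6.30 with vehicle, with overlap. The mean of 8 of the 9 markers was higher with CL, by a median of 0.40. Ucp1 and Cox8b were the 2 (22.2%) higher without overlap, against 11.2% of all genes tested. Without CL replicate 1 the median difference of the fatty acid oxidation genes was 0.24, and 10 were higher at an unadjusted p under 0.05. Without CL replicate 2, the CL array lowest in adipocyte markers, these values were 0.20 and 12.

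Other cell type markers moved with the groups or with single arrays. The mean level of 10 pericyte and smooth muscle markers was 7.42 to 7.94 with CL, against 6.94 to 7.02 with vehicle, without overlap. The mean of 9 of these was higher with CL, with differences of 1.95 for Cnn1 and 1.21 for Acta2, both of smooth muscle. That of 1, the pericyte marker Rgs5, was lower without overlap, by -0.59 ± 0.20 (adjusted p = 0.218). For 9 mast cell markers the mean level was 5.45 to 6.41 with CL, against 4.10 to 4.66 with vehicle, without overlap. For 7 markers of lipid-associated macrophages the mean level was 8.05 to 8.28 with CL, against 7.35 to 7.73 with vehicle. For 12 endothelial markers it was 7.55 to 8.41 with CL, against 8.32 to 8.89 with vehicle, with the mean of 11 lower with CL. Of the 12, 7 (58.3%) were lower at an unadjusted p under 0.05, against 5.38% of all genes tested, and the median difference was -0.61. The 6 B cell markers analysed, of 7 listed, had 4.20 to 4.31 with CL, against 4.35 to 4.81 with vehicle, without overlap, and the mean of all 6 was lower with CL. For 11 T and NK cell markers, of 12 listed, the mean level was 5.78 to 5.97 with CL, against 5.96 to 6.28 with vehicle. The mean of 8 was lower with CL, and 3 (27.3%) were lower at an unadjusted p under 0.05, against 5.38% of all genes tested. Macrophage markers, 12 in all, had 9.27 to 9.48 with CL, against 9.15 to 9.56 with vehicle. Skeletal muscle markers, 11 in all, had 4.48 to 6.12 with CL, against 4.32 to 4.97 with vehicle, highest in CL replicate 3, without which the median difference of the fatty acid oxidation genes was 0.34 and 13 were higher. Epithelial markers, 8 of 9 listed, had 4.02 to 6.06 with CL, against 4.08 to 5.30 with vehicle, highest in CL replicate 2 and vehicle replicate 2, and without both arrays the median was 0.27 and 11 genes were higher. The part of these cells in the shift of the fatty acid oxidation genes was not tested.

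**Figure D5:**
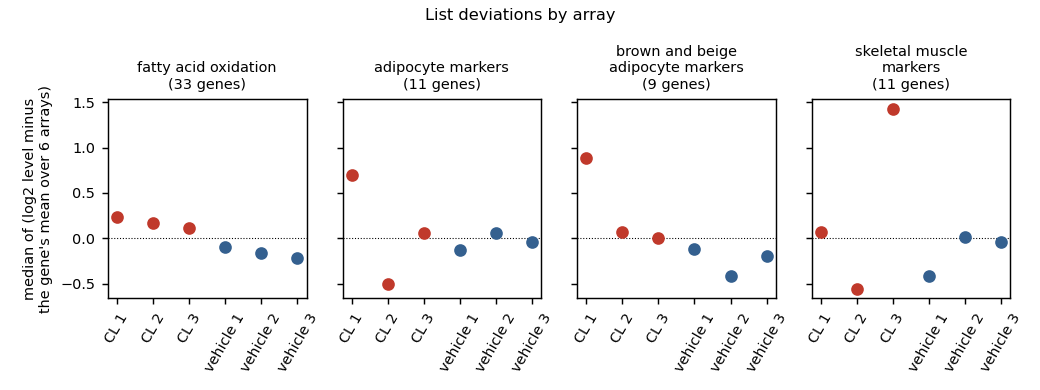
Median, over the genes of a list, of the log2 level minus the mean of each gene over the 6 arrays, for the fatty acid oxidation genes and 3 marker lists, with CL arrays left of vehicle arrays. The fatty acid oxidation genes lie between 0.11 and 0.23 on the CL arrays and between -0.22 and -0.10 on the vehicle arrays, whereas the adipocyte markers run from -0.51 to 0.70 within the CL group.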

How the data were processed

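Total RNA of the SVF was made into biotin-labelled cDNA and measured on 6 arrays, 3 per group. Per the labels, the authors made the deposited log2 levels with RMA in Affymetrix Expression Console (versions not given in the sources used here). RMA corrects background, quantile-normalizes arrays and summarises probes, so levels are relative to the other transcripts. The deposited levels were not fully equal between arrays. Medians over all probe sets were 3.74, 3.77 and 3.80 with CL, against 3.84, 3.90 and 3.89 with vehicle. Over the genes tested they were 4.27, 4.37 and 4.31 with CL, against 4.29, 4.32 and 4.29 with vehicle. The part of this in the differences was not tested. Of 41345 probe sets, the 23521 with exactly 1 symbol in the array annotation were kept, and the one with the highest mean stood for each of 22180 genes. Differences between groups, taken from the labels, were fitted with limma 3.58.1 in R 4.3.3 (lmFit and eBayes, two-sided) and adjusted by Benjamini-Hochberg over all genes at 0.05. Nothing but the labels' "biological rep" says how replicates were made. With 3 arrays per group an exact permutation test could not give a p under 0.1. Members, lists and tests were chosen with earlier results of these data known. Any member could be named. From neighbouring lists the text names genes past the threshold and up to 3 others above background with the smallest p, and from marker lists up to 4 in list order. Acot1, Fabp3, Fabp4, Fabp5, Ppara, Ppargc1a, Ppargc1b, Rxra, Esrra, Nudt12, Pex5 and Rgs5 fall outside this rule and were chosen with their values known. Gene coordinates are not printed because the build of the array annotation is not given in the sources used here. Code was tried on simulated data first.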

Additional observations from a re-analysis of the deposited data

How the results depend on the processing

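The alternatives were other moderation of the variance, the methods' test, filters on low levels, other scalings, array weights, other uses of probe sets, the replicate number as a block, and each array left out. Over all genes tested, 72 passed at an adjusted p under 0.05. This became 153 with an eBayes trend, 177 with trend and robust, 161 among genes above the median level, 0 with the methods' test (1561 higher and 1047 lower before adjustment), 15 with the replicate block, and 0 to 31 with any 1 array left out. Of the fatty acid oxidation genes 1 passed, Echs1. The count was 0 with the methods' test, quantile normalization, cyclic loess, the replicate block and any 1 array left out (0 to 0), and 2 when probe sets were averaged, which added Crat. The adjusted p of Echs1 was 0.270 with the methods' test and 0.0948 with the replicate block. The median difference of 0.30 was 0.36 among genes above the median level, 0.20 under quantile normalization, 0.18 under cyclic loess and 0.20 to 0.34 with any 1 array left out. The replicate numbers are not known to pair the mice, and deviations of same-numbered arrays correlated at -0.00459, 0.0984 and 0.0603. An alternative chosen after seeing the data left out the second CL and the second vehicle array, both high in epithelial genes such as Epcam, and gave 0 calls over all genes and 0 here (adjusted p of Echs1 0.160).

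Signs turned for genes near 0. Acad9 was -0.00257 under median centring, -0.0669 under quantile normalization and -0.0575 under cyclic loess. Crot was -0.0900 and -0.10, and Acaa1b 0.0258 and 0.0171, under those scalings, and Hadha was -0.0283 under cyclic loess. Without both second arrays Crot was -0.00810, Acaa1b 0.22 and Decr2 -0.0717. With any 1 array left out, Acsl5 was -0.331 to 0.0432, Crot -0.0344 to 0.0686, Acad9 -0.0366 to 0.0780, Acad10 -0.0924 to 0.170, Hadha -0.0147 to 0.119, Hadhb -0.0204 to 0.330, Acaa1b -0.0895 to 0.122 and Decr2 -0.0159 to 0.219. The 33 genes kept direction and side of the threshold in 585 of 622 comparisons with an alternative. In 25 the sign turned, and in 1 a gene gained a call. Echs1 alone had a call to lose, and it lost the call under 11 of the 19 alternatives. For the other genes staying uncalled was close to fixed in advance, so the count of 585 does not measure how firm the results are. The causes were not tested. Signal near background limits Hadhb, Acad10 and Acox2.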

Other observations

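Of 18 other peroxisomal lipid enzymes and transporters, the mean of 15 was higher with CL. Before adjustment 6 (33.3%) were higher and 1 was lower, where 9.4% of all genes tested and 16.5% of those above the median level were higher, 0 passed after it in limma, and the median difference was 0.30. Abcd2, a transporter of very long-chain acyl-CoA into peroxisomes, had levels of 6.27, 6.43 and 6.43 with CL, against 5.62, 5.38 and 5.58 with vehicle, a difference of 0.85 ± 0.14 (adjusted p = 0.0531). Cat, the catalase that removes the hydrogen peroxide made by acyl-CoA oxidases, had 9.15, 9.10 and 9.20 with CL, against 8.58, 8.72 and 8.38 with vehicle, a difference of 0.59 ± 0.14 (adjusted p = 0.124). Nudt12, a peroxisomal nucleotide hydrolase, lay lower without overlap, by a difference of -0.55 ± 0.18 (adjusted p = 0.209).

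Among 13 peroxins, the proteins that build peroxisomes, 3 (23.1%, against the same 9.4% and 16.5%) were higher and 0 were lower before adjustment, with 0 past the threshold after it. Pex19, which inserts membrane proteins, differed by 0.67 ± 0.17 (adjusted p = 0.129), Pex16 by 0.61 ± 0.17 (adjusted p = 0.158) and Pex7, an import receptor, by 0.47 ± 0.13 (adjusted p = 0.161). Pex5, another import receptor, differed by -0.29 ± 0.14 (adjusted p = 0.371) and lay lower without overlap. The 12 other acyl-CoA thioesterases had a median difference of 0.07, with the mean of 8 higher with CL and that of 4 lower. Before adjustment 2 (16.7%, against the same 9.4% and 16.5%) were higher, Acot6 and Acot13, and 0 were lower.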
